A study of Homo sapiens with 21 samples.

Results

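RNA levels of genes for secreted proteins of the transforming growth factor beta (TGF-beta) superfamily and their extracellular antagonists were followed through replicative ageing of human skin fibroblasts. They were also followed, apart from it, through exposure to DOX. The genes were picked by symbol from the deposited count table: INHBA, FST, GDF15, TGFB1, TGFB2, TGFB3, BMP2, BMP4 and GREM1, 9 of the 61544 genes listed there. All 9 passed the filter on low counts, which 16821 genes passed. The cells were BJ, a human skin fibroblast line of limited lifespan in culture. Libraries came from cells at 5 passages (P3, P11, P24, P30, P33) and from P11 cells given DOX (doxorubicin, per the series title, a DNA-damaging topoisomerase poison) at 50 ng/ml or DMSO, its solvent control. Each of these 7 groups had 3 libraries, and all of them were poly(A)-selected RNA of the same line, with no genotype change named. The labels give neither the length of the DOX exposure nor the origin of the replicates. If the 3 libraries of a group did not come from separate cultures, the p-values cover technical spread alone.

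Ligands of this superfamily are dimers that bind paired type I and type II serine/threonine kinase receptors, which phosphorylate SMAD transcription factors. Activins and TGF-beta isoforms act mainly through SMAD2 and SMAD3, whereas bone morphogenetic proteins (BMPs) act mainly through SMAD1, SMAD5 and SMAD9, whose best known targets are the ID genes. Antagonists work outside the cell: follistatin traps activin, and gremlin 1 traps BMP2 and BMP4. In dermal fibroblasts TGF-beta drives matrix production, and GDF15 and activin A are among the factors that senescent cells are known to secrete.

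Levels are CPM, counts relative to library sizes scaled by the trimmed mean of M-values (TMM). Totals ran from 12.946 M counts in a P30 library to 27.194 M counts in a DOX library, at which BMP2 rested on 7 to 78 reads per library. Genes nested inside another gene on the same strand had no reads in the passage libraries but often had them in the DOX and DMSO libraries, so no level of the passage libraries is set against the DOX or DMSO libraries. None of the 9 genes is nested in this way. On the opposite strand, INHBA-AS1 and GREM1-AS1 overlap INHBA and GREM1 but held only 125 and 92 reads over the 15 passage libraries. Genes opposite TGFB1 and TGFB3 held far more reads, given below. Fibroblast markers dominated every library, with a summed level of 13602 to 42213 CPM, while keratinocyte markers summed to 13.5 to 32.8 CPM and leukocyte markers to 0.539 to 2.41 CPM, and KRT5, which defines basal keratinocytes, was at 0 in all groups.

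In the table's hg38 coordinates INHBA lies on the minus strand at chr7:41667168-41705834 and FST on the plus strand at chr5:53480626-53487134. GDF15 is at chr19:18374731-18389176 on the plus strand, and GREM1 at chr15:32718004-32745106 on the plus strand. TGFB1 lies at chr19:41301587-41353922 (minus), TGFB2 at chr1:218345336-218444619 (plus), TGFB3 at chr14:75958097-75983011 (minus), BMP2 at chr20:6767686-6780246 (plus) and BMP4 at chr14:53949736-53958761 (minus). Each interval is the whole gene, exons and introns together. The promoters of INHBA, FST, GDF15 and GREM1, 4 genes whose levels changed most across the passages, are shown as the 250 bases before the RefSeq start (GRCh38.p14), 5′ to 3′ on the gene's strand. Capitals mark a TATA box (TATAAA) or an AP-1 site (TGANTCA).
INHBA, chr7:41703091-41703340, minus strand: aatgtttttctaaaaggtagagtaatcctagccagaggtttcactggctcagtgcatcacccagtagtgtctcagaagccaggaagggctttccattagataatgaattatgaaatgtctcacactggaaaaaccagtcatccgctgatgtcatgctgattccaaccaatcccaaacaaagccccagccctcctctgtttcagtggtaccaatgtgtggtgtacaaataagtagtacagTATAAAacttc
FST, chr5:53480379-53480628, plus strand: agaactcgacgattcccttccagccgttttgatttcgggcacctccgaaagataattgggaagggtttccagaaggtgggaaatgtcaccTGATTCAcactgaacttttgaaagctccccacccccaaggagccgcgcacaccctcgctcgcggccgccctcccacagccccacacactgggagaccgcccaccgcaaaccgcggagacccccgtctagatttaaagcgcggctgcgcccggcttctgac
GDF15, chr19:18385908-18386157, plus strand: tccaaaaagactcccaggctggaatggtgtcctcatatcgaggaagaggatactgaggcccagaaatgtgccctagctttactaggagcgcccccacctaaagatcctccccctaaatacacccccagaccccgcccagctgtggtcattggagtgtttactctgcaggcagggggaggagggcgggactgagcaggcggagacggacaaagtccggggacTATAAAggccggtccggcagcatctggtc
GREM1, chr15:32717754-32718003, plus strand: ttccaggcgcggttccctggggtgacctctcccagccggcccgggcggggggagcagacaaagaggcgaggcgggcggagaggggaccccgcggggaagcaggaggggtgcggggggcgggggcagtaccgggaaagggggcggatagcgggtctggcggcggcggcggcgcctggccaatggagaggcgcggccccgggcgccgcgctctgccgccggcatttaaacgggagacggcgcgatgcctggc
The TATA box lies at positions -29 to -24 in GDF15 and -11 to -6 in INHBA, counting the last base before the start as -1, and the AP-1 match lies at -160 to -154 in FST. Of the 8 genes with a RefSeq promoter here (all but BMP2), INHBA, GDF15 and TGFB2 hold TATAAA on either strand, against 11.1% of 27305 promoters of the same length. FST is the only one of the 8 with TGANTCA, which 6.60% of promoters hold, and none of the 8 has the cyclic AMP response element TGACGTCA, found in 1.77%. GREM1 has a GC content of 76.8% and holds 4 GC boxes (GGGCGG on either strand, present in 42.3% of promoters), whereas INHBA has a GC content of 42.8% and no GC box. The SMAD-binding letters CAGAC, present in 37.8% of promoters on either strand, occur in GDF15, TGFB2, TGFB3, BMP4 and GREM1. These are matches of letters, with no binding measured.

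Across the 5 passages all 9 genes differed in level (edgeR quasi-likelihood F test, adjusted p at most 2e-06), in a data set where 82.9% of the genes tested did. The highest passage mean was 6.94 times the lowest for GDF15, 5.77 times for INHBA, 4.60 times for FST, 4.32 times for GREM1, 3.95 times for BMP2 and 2.32 times for TGFB3, while TGFB2 (1.67 times), TGFB1 (1.55 times) and BMP4 (1.40 times) stayed within 2-fold. FST declined early and stayed low, GDF15 climbed late, INHBA dipped at P24, recovered and then dropped, and GREM1 had its main fall between P30 and P33.

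**Figure D1:**
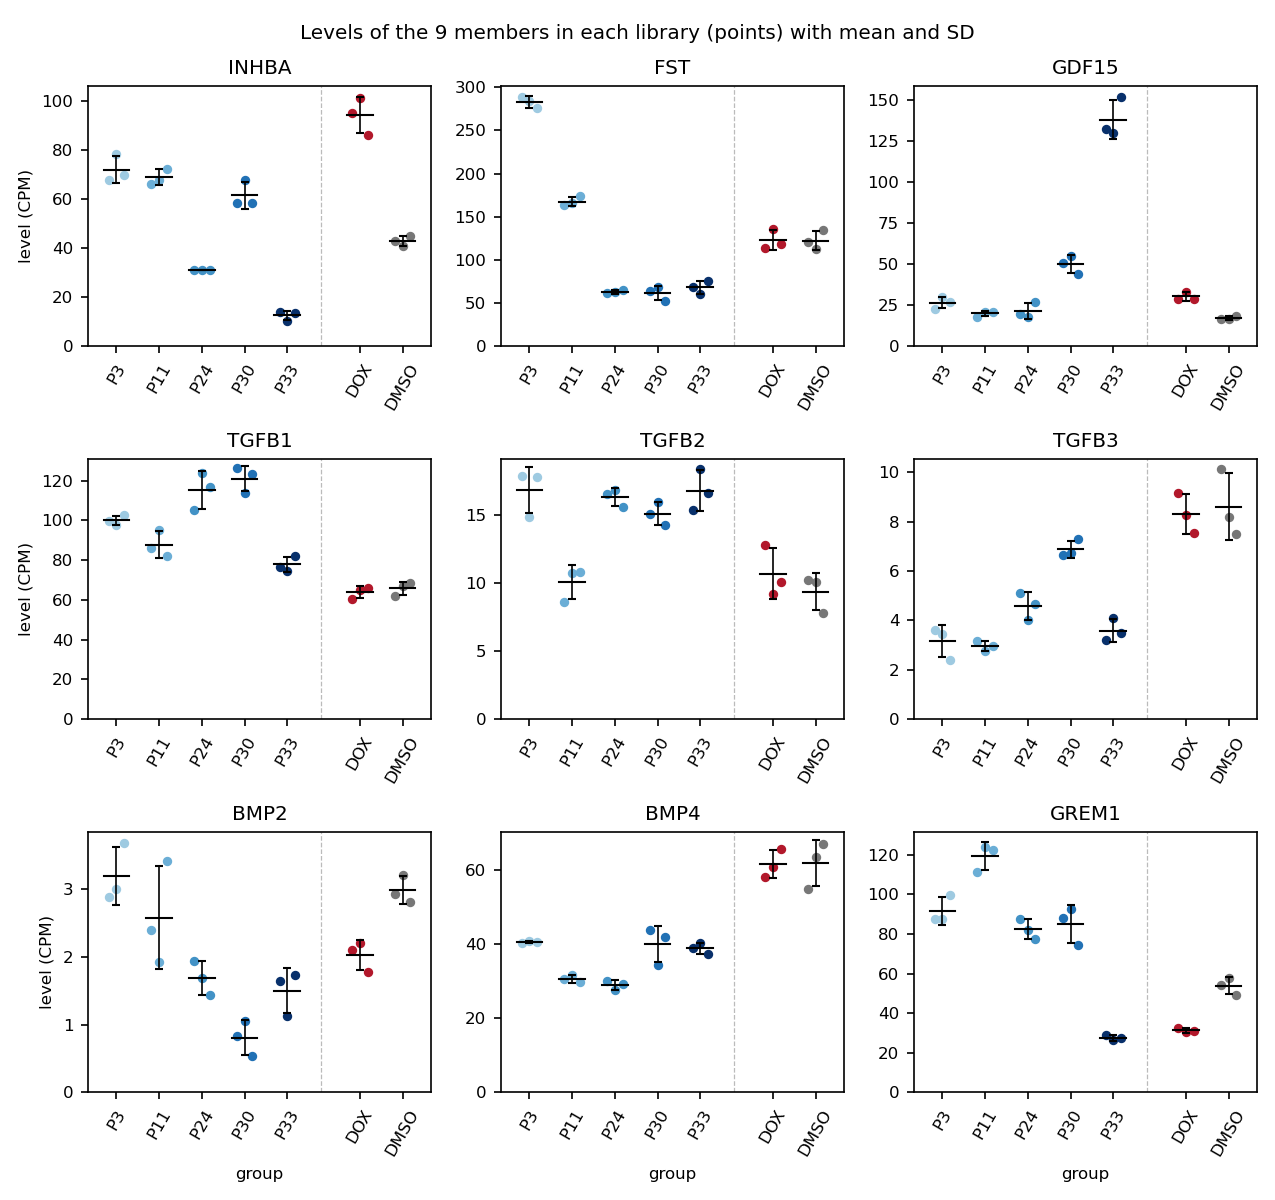
Level of each of the 9 genes in CPM (vertical axis, from 0) in each group (horizontal axis), with a point per library, a line at the mean of 3 libraries and error bars of 1 SD; the passages run from P3 to P33, and DOX and DMSO stand apart. INHBA and GREM1 drop at P33 to means of 12.5 and 27.6 CPM, FST drops by P24, and GDF15 climbs to 138 CPM at P33.

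INHBA encodes the beta A subunit of activin A. It stood at 67.9, 78.4 and 69.7 CPM in the P3 libraries, 66.1, 67.9 and 72.4 CPM at P11, 30.9, 30.9 and 31.1 CPM at P24, 58.2, 67.8 and 58.4 CPM at P30, and 13.9, 10.3 and 13.3 CPM at P33. The P33 libraries lay below every other passage library and the P24 libraries lay next, while P3, P11 and P30 ranges touched one another in order. INHBA thus fell 2.22-fold at P24 relative to P11 (log2 fold change -1.15 ± 0.079 SE, adjusted p = 2.13e-13), rose 1.99-fold at P30 relative to P24 (0.99 ± 0.080, adjusted p = 6.58e-12) and fell 4.92-fold at P33 relative to P30 (-2.30 ± 0.088, adjusted p = 3.21e-20). At P33 it was 5.76-fold lower than at P3 (-2.53 ± 0.086, adjusted p = 4.43e-22). The small fall at P30 relative to P3 (1.17-fold, adjusted p = 0.0097) rested on single libraries, with an adjusted p of 0.0888 without P3 replicate 2 and 0.0605 without P30 replicate 1.

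FST encodes follistatin, the antagonist of activin. Its levels were 289, 284 and 276 CPM at P3, 163, 166 and 174 CPM at P11, 60.9, 62.3 and 65.0 CPM at P24, 64.2, 67.9 and 52.5 CPM at P30, and 68.7, 60.3 and 75.4 CPM at P33. P3 and P11 each stood clear of all later passages, and the last 3 passages overlapped. FST fell 1.69-fold at P11 relative to P3 (log2 fold change -0.76 ± 0.075 SE, adjusted p = 7.34e-10) and a further 2.67-fold at P24 relative to P11 (-1.42 ± 0.079, adjusted p = 1.46e-15). Neither later step passed the test: P30 with P24 gave -0.02 (95% interval -0.19 to 0.15) and P33 with P30 gave 0.14 (-0.03 to 0.30), although without P33 replicate 2 the second reached an adjusted p of 0.0250. At P33 FST was 4.16-fold lower than at P3 (-2.06 ± 0.078, adjusted p = 8.5e-21).

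Because ligand and antagonist were read in the same library, their counts can be set as a ratio, a measure chosen after the values were seen and left untested. Such ratios are not corrected for exon length, 8.302 kb for INHBA and 2.969 kb for FST. They can be compared between groups, but a value of 1 does not mean equal transcript levels. INHBA counts per FST count averaged 0.254 ± 0.021 at P3, 0.411 ± 0.0054 at P11, 0.494 ± 0.014 at P24, 1.00 ± 0.10 at P30 and 0.183 ± 0.017 at P33 (SD, n = 3 each). The ratio was highest at P30, where INHBA had recovered and FST had not, and lowest at P33. Its P30 range of 0.905 to 1.111 lay apart from the P33 range of 0.170 to 0.202 and from all earlier passages.

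GDF15 encodes a stress-induced ligand that signals through GFRAL in the brainstem. GFRAL itself did not pass the count filter. GDF15 stood at 22.7, 29.7 and 26.9 CPM at P3, 17.9, 20.9 and 20.9 CPM at P11, 19.5, 17.8 and 27.0 CPM at P24, 50.7, 55.1 and 44.2 CPM at P30, and 133, 130.1 and 152 CPM at P33. All 3 libraries of P30 lay above those of the earlier passages, and all 3 of P33 above those of P30. The rise came in 2 steps, 2.33-fold at P30 relative to P24 (log2 fold change 1.22 ± 0.11 SE, adjusted p = 8.34e-11) and 2.75-fold at P33 relative to P30 (1.46 ± 0.098, adjusted p = 4.27e-14). GDF15 was 5.23-fold higher at P33 than at P3 (2.39 ± 0.10, adjusted p = 1.24e-19). Earlier it fell 1.33-fold at P11 relative to P3 (adjusted p = 0.00377). Its 1.22-fold fall at P24 relative to P3 had overlapping groups and lost its call under 5 alternatives, among them leaving out P3 replicate 2 or 3 or P24 replicate 1 or 2, where the adjusted p ran from 0.0611 to 0.224.

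The 3 TGF-beta isoforms moved less and in different ways. TGFB1, the isoform with the highest level per kilobase of exon, had 99.5, 97.9 and 103 CPM at P3, 86.1, 95.2 and 82.2 CPM at P11, 105, 124 and 117 CPM at P24, 126, 114 and 123 CPM at P30, and 76.7, 74.7 and 82.2 CPM at P33. The P24 and P30 libraries were the highest and the P33 libraries overlapped only those of P11. TGFB1 fell 1.55-fold at P33 relative to P30 (log2 fold change -0.64 ± 0.063 SE, adjusted p = 4.8e-10) and 1.28-fold relative to P3 (-0.36 ± 0.063, adjusted p = 6.78e-06). Its early fall at P11 relative to P3, 1.14-fold with adjusted p = 0.0157, lost its call without P3 replicate 3, P11 replicate 1 or P11 replicate 3 (adjusted p 0.0550 to 0.104), and its 1.15-fold rise at P24 relative to P3 lost its call without P24 replicate 2 (adjusted p = 0.0628). HNRNPUL1 and CCDC97 overlap TGFB1 on the opposite strand and held 95647 and 5509 reads over the passage libraries. CCDC97 lies wholly inside TGFB1, yet it had reads, whereas none of the 9427 genes nested on the same strand had any there. The strand setting was not given, and whether reads of HNRNPUL1 or CCDC97 are among those of TGFB1 was not tested.

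TGFB2 had 17.9, 14.8 and 17.8 CPM at P3, 8.62, 10.7 and 10.8 CPM at P11, 16.5, 16.8 and 15.6 CPM at P24, 15.03, 15.9 and 14.3 CPM at P30, and 15.3, 18.4 and 16.6 CPM at P33. P11 alone stood apart, below all other passages. TGFB2 fell 1.67-fold at P11 relative to P3 (log2 fold change -0.74 ± 0.11 SE, adjusted p = 1.92e-06) and rose 1.62-fold at P24 relative to P11 (0.70 ± 0.12, adjusted p = 1.19e-05). P33 with P3 gave 0.00 on the log2 scale, with a 95% interval of -0.21 to 0.21. TGFB3, at means of 2.97 to 6.88 CPM, had 6.63, 6.73 and 7.28 CPM at P30, above all other passage libraries. It rose 1.49-fold at P30 relative to P24 (0.58 ± 0.15, adjusted p = 0.00206) and fell 1.91-fold at P33 relative to P30 (-0.94 ± 0.15, adjusted p = 3.98e-06). P33 with P3 did not pass for TGFB3 (0.16, interval -0.17 to 0.48), and the rise at P24 relative to P3 had an adjusted p of 0.0529 without P3 replicate 3, against 0.00561 with it. All of TGFB3 lies within the span of IFT43 on the opposite strand, which held 4526 reads over the 15 passage libraries. TGFB3 had 47 to 128 reads per passage library, and whether IFT43 reads are among them was not tested.

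BMP2 and BMP4 are closely related BMPs, and GREM1 encodes gremlin 1, their antagonist. BMP2 was low throughout, with 2.89, 3.005 and 3.68 CPM at P3, 2.40, 1.92 and 3.41 CPM at P11, 1.93, 1.68 and 1.44 CPM at P24, 0.829, 1.05 and 0.542 CPM at P30, and 1.64, 1.13 and 1.74 CPM at P33. The P30 libraries were the lowest and the P3 libraries, with one at P11, the highest. BMP2 was 2.103-fold lower at P33 than at P3 (log2 fold change -1.07 ± 0.20 SE, adjusted p = 2.09e-05) and 1.99-fold lower at P30 than at P24 (-0.99 ± 0.28, adjusted p = 0.00555). Its rise at P33 relative to P30 (0.85 ± 0.28, adjusted p = 0.013) lost its call without P30 replicate 3 or P33 replicate 3 (adjusted p 0.0680 and 0.0513). The fall at P24 relative to P11 (-0.60, adjusted p = 0.0319) lost its call under 5 alternatives, among them leaving out P11 replicate 3, P24 replicate 2 or P24 replicate 3, with an adjusted p of up to 0.254, and P11 with P3 gained a call without P11 replicate 3 (adjusted p = 0.0294).

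BMP4 had 40.3, 40.8 and 40.6 CPM at P3, 30.4, 31.6 and 29.6 CPM at P11, 30.2, 27.6 and 29.1 CPM at P24, 43.7, 34.5 and 41.8 CPM at P30, and 39.0, 40.3 and 37.4 CPM at P33. P11 and P24 formed a lower level and P3, P30 and P33 a higher one. BMP4 fell 1.33-fold at P11 relative to P3 (log2 fold change -0.41 ± 0.076 SE, adjusted p = 4.4e-05) and rose 1.38-fold at P30 relative to P24 (0.46 ± 0.078, adjusted p = 1.53e-05). P33 with P3 did not pass (-0.06, 95% interval -0.21 to 0.09), although the 2 ranges just miss each other.

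GREM1 had 87.7, 87.4 and 99.9 CPM at P3, 111, 124 and 122 CPM at P11, 87.5, 82.2 and 77.5 CPM at P24, 87.9, 92.6 and 74.5 CPM at P30, and 29.2, 26.3 and 27.5 CPM at P33. P11 stood above and P33 far below the rest, and P3, P24 and P30 overlapped. GREM1 rose 1.30-fold at P11 relative to P3 (log2 fold change 0.38 ± 0.069 SE, adjusted p = 2.89e-05), fell 1.45-fold at P24 relative to P11 (-0.54 ± 0.070, adjusted p = 2.37e-07) and fell 3.08-fold at P33 relative to P30 (-1.62 ± 0.077, adjusted p = 6.64e-18). At P33 it was 3.31-fold lower than at P3 (-1.73 ± 0.076, adjusted p = 2.94e-19). P24 with P3 (-0.15, adjusted p = 0.0628) gained a call without P3 replicate 2 or P24 replicate 1, and with no count filter, with an adjusted p of 0.0334 to 0.0442. BMP4 counts per GREM1 count, a ratio also chosen after the values were seen and not tested, averaged 0.444 ± 0.033 at P3, 0.256 ± 0.016 at P11, 0.352 ± 0.021 at P24, 0.477 ± 0.096 at P30 and 1.41 ± 0.11 at P33 (SD, n = 3 each). Raw BMP4 reads outnumbered GREM1 reads at P33 alone, but GREM1 has 14.606 kb of exon and BMP4 3.082 kb. Per kilobase of exon, mean BMP4 lay above mean GREM1 at every passage. The means were 13.2 and 6.28 CPM per kilobase at P3, and 12.6 and 1.89 at P33. The exon lengths join the exons of all isoforms, whereas the deposited gene lengths are whole spans. Reads in introns may thus be among the counts, and their share was not tested.

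**Figure D2:**
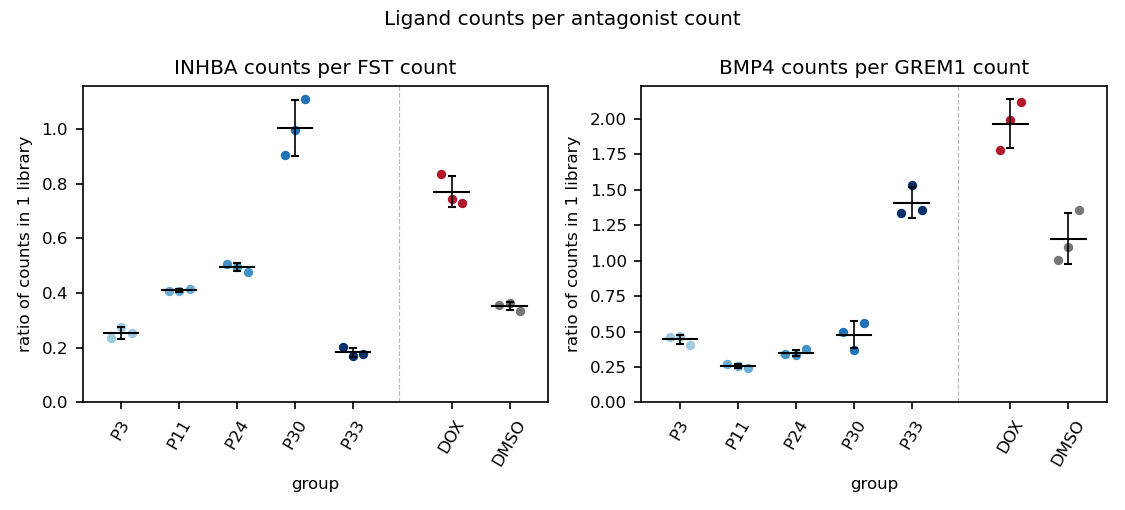
Counts of a ligand gene per count of its antagonist gene in each library (vertical axis, no unit, not corrected for exon length), by group (horizontal axis), with a point per library, a line at the mean and error bars of 1 SD. INHBA per FST peaks at P30 with a mean of 1.00, and BMP4 per GREM1 reaches 1.41 at P33; with DOX both ratios lie above those with DMSO.

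Counted over the 9 genes, P33 with P3 gave 1 rise (GDF15) and 5 falls (INHBA, FST, TGFB1, BMP2 and GREM1), in a comparison where 67.8% of genes were called, 34.5% higher and 33.3% lower. Of the steps, P24 with P11 gave 3 rises and 4 falls (33.6% of genes called, 16% higher and 17.7% lower), P30 with P24 gave 4 rises and 1 fall (35.1%, 18% higher and 17.1% lower), and P33 with P30 gave 2 rises and 4 falls (48.4%, 23.6% higher and 24.8% lower). Against P3, P11 gave 1 rise and 5 falls (46.5%, 22.9% higher and 23.6% lower), P24 gave 2 rises and 5 falls (54.4%, 26.6% higher and 27.8% lower), and P30 gave 3 rises and 3 falls (58.6%, 29% higher and 29.6% lower). Those comparisons and P33 with P3 share the P3 libraries. In bulk RNA, fewer cells that express a gene and less RNA of it per cell cannot be told apart. Mitochondrial genes took 6.04 to 6.28% of counts at P33 and 4.95 to 5.23% at P3, ribosomal protein genes took 1.77 to 1.79% at P33 and 2.74 to 2.93% at P3, and the summed fibroblast markers were 13602 to 15583 CPM at P33 and 18304 to 19033 CPM at P3. Keratinocyte markers summed to 28.6 to 29.7 CPM at P33 and 16.7 to 18.8 CPM at P3, and endothelial markers to 4.92 to 6.35 CPM at P33 and 3.92 to 4.41 CPM at P3. Single genes held most of these 2 sums: mean KRT10 was 22.4 CPM at P33 and 14.3 CPM at P3, and mean TEK 4.46 and 2.98 CPM. KRT15, TP63, CDH1, DSG3, PECAM1 and CDH5 also had higher means at P33, KRT15 at 5.19 CPM and 2.91 CPM at P3. EPCAM, KRT14 and VWF had lower means at P33, and KDR was nearly the same, at 0.0999 and 0.101 CPM. The part of these shifts in the results was not tested.

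Per kilobase of exon (GENCODE 29), FST had the highest level of the 9 at P3, with a mean of 95.3 CPM per kilobase, ahead of TGFB1 at 30.9, BMP4 at 13.2 and GDF15 at 12.7, the last pair overlapping. At P33 GDF15 led with 66.2 CPM per kilobase, followed by TGFB1 at 24.1 and FST at 22.9, which overlapped, and BMP4 at 12.6. INHBA stood at 1.502 CPM per kilobase at P33 and 8.67 at P3. TGFB3 and BMP2 were the lowest at both ends, with 0.73 and 0.42 CPM per kilobase at P33 and 0.64 and 0.89 at P3. The limit on exon lengths given above holds for these orders too.

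For each gene that spanned 2-fold, the protein-coding genes nearest to it in course were found among 11028 candidates, by the root mean square (RMS) difference of centred log2 CPM over the 15 passage libraries, a description with no test. INHBA was closest to TOX (0.24) and MCAM (0.26), a transcription factor and a cell adhesion protein. FST was near MME (0.24) and APOE (0.29), which encode a cell surface peptidase and a lipid carrier. GDF15 was closest to PAPPA (0.24), a protease of insulin-like growth factor binding proteins, then to TRIB3 (0.32) and DDIT3 (0.32), genes of the integrated stress response. GREM1 was closest to APCDD1 (0.16), GNAO1 (0.17) and PIEZO2 (0.19), and TGFB3 to CALD1 (0.16), ZFAND5 (0.17) and COL12A1 (0.18). BMP2 was closest to EPHB2 (0.28) and to the mitotic genes CDCA8 (0.29) and AURKB (0.30).

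To see which of these genes responded to DOX, P11 cells given DOX were set against P11 cells given DMSO. INHBA and GDF15 rose, GREM1 fell, and the remaining differences were small or did not pass, in a comparison where 37.3% of genes were called, 16.7% higher and 20.6% lower. INHBA had 95.04, 101 and 86.2 CPM with DOX, against 43.0, 40.6 and 44.9 CPM with DMSO. The groups lay far apart, and INHBA was 2.20-fold higher with DOX (log2 fold change 1.13 ± 0.076 SE, adjusted p = 4.79e-14). GDF15 had 28.8, 33.1 and 28.8 CPM with DOX and 16.4, 16.3 and 18.6 CPM with DMSO. It was 1.77-fold higher with DOX, with no overlap (0.83 ± 0.12, adjusted p = 6.66e-07). GREM1 had 32.6, 30.5 and 30.9 CPM with DOX and 54.4, 57.7 and 49.3 CPM with DMSO. It was 1.72-fold lower with DOX, again with no overlap (-0.78 ± 0.077, adjusted p = 5.55e-10).

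FST, the antagonist paired with INHBA, had 114, 135 and 118 CPM with DOX and 120, 112 and 134 CPM with DMSO, with overlapping ranges (log2 fold change 0.00, 95% interval -0.15 to 0.16). INHBA counts per FST count were therefore 0.770 ± 0.057 with DOX and 0.351 ± 0.015 with DMSO (SD, n = 3 each). BMP4, the ligand paired with GREM1, had 58.0, 60.9 and 65.5 CPM with DOX and 54.9, 63.5 and 67.0 CPM with DMSO (-0.01, interval -0.15 to 0.14), and BMP4 counts per GREM1 count were 1.97 ± 0.17 with DOX and 1.16 ± 0.18 with DMSO. Neither FST nor BMP4 passed the test, and in both pairs the partner that did was the one that moved the ratio.

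TGFB1, TGFB2 and TGFB3 did not pass with DOX: their log2 fold changes were -0.04 (95% interval -0.18 to 0.09), 0.20 (-0.05 to 0.44) and -0.06 (-0.31 to 0.20). BMP2 had 2.098, 2.21 and 1.78 CPM with DOX and 2.93, 3.21 and 2.82 CPM with DMSO, which do not overlap. The fall of 1.47-fold (-0.55 ± 0.20, adjusted p = 0.0297) was the weakest call here: it was lost with DESeq2 (adjusted p = 0.0528) and without DOX replicate 1 or 3 or DMSO replicate 1 or 2 (0.0524 to 0.0944). Mitochondrial genes took 6.66 to 7.17% of counts with DOX and 5.90 to 6.34% with DMSO. Summed marker levels also differed without overlap: leukocyte markers were 1.78 to 2.41 CPM with DOX and 0.645 to 0.970 CPM with DMSO, keratinocyte markers 17.3 to 18.9 CPM with DOX and 13.5 to 15.1 CPM with DMSO, and smooth muscle and pericyte markers 23.4 to 27.4 CPM with DOX and 21.6 to 22.1 CPM with DMSO. Fibroblast markers summed to 41135 to 42213 CPM with DOX and 39185 to 40428 CPM with DMSO. Every keratinocyte marker with reads had a higher mean with DOX. The leukocyte, smooth muscle and pericyte, and fibroblast lists did not move as a whole. Mean PTPRC was 1.44 CPM with DOX and 0.140 CPM with DMSO, and mean NOTCH3 was 17.7 and 12.4 CPM. In contrast, CD14, CD68, RGS5, ACTG2 and DES had lower means with DOX, while MYH11 had a higher one. Of the fibroblast markers, FAP, PDGFRA, PDGFRB, VIM, LUM, DCN and S100A4 had lower means with DOX. COL1A1, COL1A2 and THY1 had higher ones. Mean COL1A1 was 14728 CPM with DOX and 10471 CPM with DMSO, and mean PDGFRA was 365 and 738 CPM. Of the leukocyte markers 5 of 5 had reads with DOX and 3 of 5 with DMSO, where CD3E and LYZ were at 0, and of the keratinocyte markers 8 of 9 had reads with DOX and 5 of 9 with DMSO, with KRT5 at 0 in both. The part of these shifts in the results was not tested.

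The DOX effect and the P33 effect were compared within 1 model, as the DOX with DMSO change minus the P33 with P3 change. DOX was given at P11, whereas the P33 effect starts from P3, so the difference also holds the change from P3 to P11. That change, on the log2 scale, was -0.76 for FST, -0.41 for GDF15, 0.38 for GREM1, -0.18 for TGFB1 and -0.07 for INHBA. A difference with P11 as the baseline was not tested. For INHBA the 2 effects ran in opposite directions, a rise with DOX and a fall at P33, and their difference was 3.66 ± 0.11 on the log2 scale (SE, adjusted p = 2.88e-22). FST fell at P33 and not detectably with DOX (difference 2.06 ± 0.11, adjusted p = 1.74e-16). GDF15 rose and GREM1 fell in both, each by more at P33 (differences -1.56 ± 0.15, adjusted p = 4.11e-10, and 0.95 ± 0.11, adjusted p = 7.44e-09). The difference for TGFB1 was 0.32 ± 0.091 (adjusted p = 0.00384). These 5 genes passed the test of the difference, in which 51.2% of genes were called, 25.8% with a positive and 25.4% with a negative difference. TGFB2, TGFB3, BMP2 and BMP4 did not, BMP2 with a difference of 0.52 ± 0.29 (SE, adjusted p = 0.133).

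**Figure D3:**
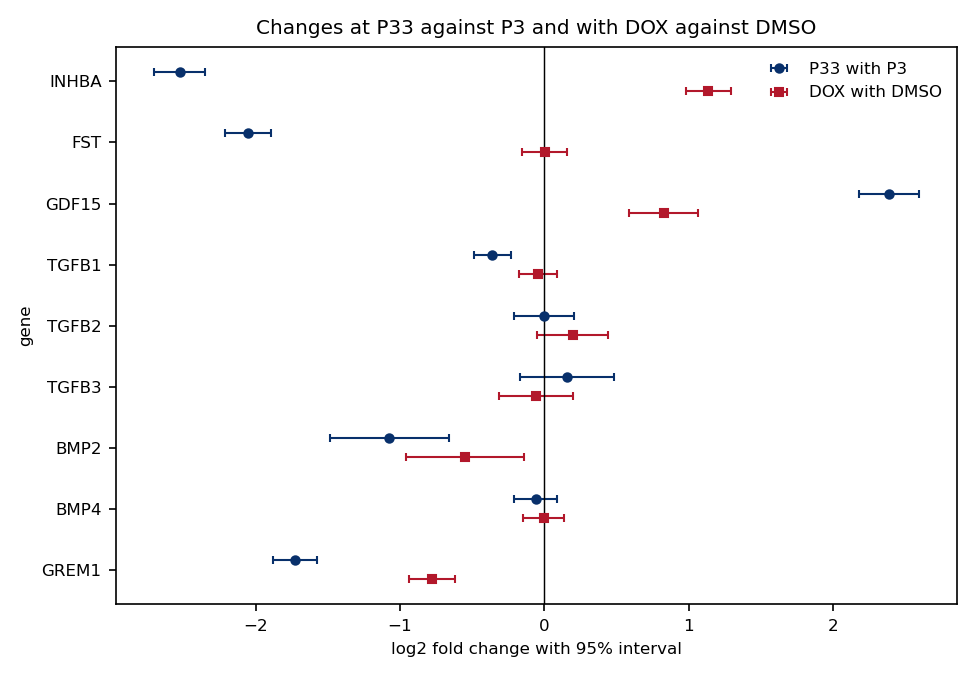
Log2 fold change (horizontal axis) with DOX relative to DMSO (squares) and at P33 relative to P3 (circles) for each of the 9 genes (rows), with bars for 95% intervals. INHBA lies on opposite sides of 0 in the 2 comparisons, at 1.13 with DOX and -2.53 at P33, while GDF15 and GREM1 lie on the same side in both.

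The wider pathway was read from 7 lists of genes. Some lists share members, SMAD7 and BAMBI among them, so their counts are not independent. Over all genes tested, the median log2 fold change was 0.00 in P33 with P3 and -0.01 in DOX with DMSO. Among 10 other ligands tested of 26 listed, P33 with P3 gave 5 rises and 3 falls (median log2 fold change 0.81), where 67.8% of all genes were called, and DOX with DMSO gave 4 rises and 1 fall (median 0.45), where 37.3% were. The called share was thus 8 of 10 at P33 and 5 of 10 with DOX, not far from that of all genes. GDF5 and GDF6, ligands of the skeletal BMP branch, fell at P33, GDF5 to 1.53 ± 0.48 CPM at P33, against 9.63 ± 0.10 CPM at P3, and GDF6 to 1.27 ± 0.54 CPM, against 13.3 ± 1.1 CPM (SD, n = 3 each; adjusted p = 2.21e-15 and 1.67e-17). GDF5 rose with DOX, at 36.1 ± 3.3 CPM with DOX and 13.7 ± 0.86 CPM with DMSO (adjusted p = 5e-13). INHBE, another inhibin beta subunit, reached 2.56 ± 0.39 CPM at P33 and was almost undetected at P3, and with DOX it had 1.58 ± 0.30 CPM, against 0.807 ± 0.017 CPM with DMSO (adjusted p = 0.0105). INHBB rose with DOX to 1.83 ± 0.15 CPM, against 0.973 ± 0.29 CPM with DMSO (adjusted p = 0.00733).

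Other extracellular antagonists, 12 tested of 18, gave 4 rises and 5 falls at P33 relative to P3 (median log2 fold change 0.01; 67.8% of all genes called) and 3 rises and 6 falls with DOX relative to DMSO (median -0.21; 37.3% called). CHRDL1 and BMPER, which bind BMPs, fell at P33, 2.81-fold and 2.06-fold (adjusted p = 2.56e-12 and 3.33e-15), and BAMBI, a membrane pseudoreceptor, rose 2.26-fold (adjusted p = 1.02e-07). With DOX, CHRD (chordin) fell 1.91-fold (adjusted p = 0.00356). FSTL3, a follistatin relative that binds activin, fell 1.30-fold at P33 (adjusted p = 9.85e-06) and rose 1.30-fold with DOX (adjusted p = 5.67e-05). FSTL1 rose with DOX 1.61-fold (adjusted p = 8.63e-13).

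Receptors and coreceptors, 15 tested of 17, gave 9 rises and 3 falls at P33 relative to P3 (median log2 fold change 0.21; 67.8% of all genes called) and 1 rise and 5 falls with DOX relative to DMSO (median -0.11; 37.3% called). At P33 ACVR1C rose 2.46-fold (adjusted p = 0.000222), RGMB, a BMP coreceptor, rose 1.73-fold (adjusted p = 6.92e-11) and ACVR2A, an activin type II receptor, rose 1.63-fold (adjusted p = 5.24e-08). With DOX the coreceptor RGMA fell 1.89-fold (adjusted p = 0.000287), ACVRL1 fell 1.63-fold (adjusted p = 2.43e-09) and TGFBR3 (betaglycan) fell 1.43-fold (adjusted p = 4.28e-09). Latency, activation and processing genes, 18 tested of 19, gave 4 rises and 11 falls at P33 (median -0.26), against 33.3% of all genes lower, and 3 rises and 8 falls with DOX (median -0.08), against 20.6% lower. LRRC32, which displays latent TGF-beta on the cell surface, fell in both comparisons, 2.32-fold at P33 (adjusted p = 2.82e-11) and 2.69-fold with DOX (adjusted p = 2.52e-16). The microfibril gene FBN2 fell 3.79-fold at P33 (adjusted p = 3.74e-23), the convertase PCSK5 rose 2.85-fold there (adjusted p = 3.74e-11), and ITGB8, a subunit of a TGF-beta-activating integrin, fell 1.58-fold with DOX (adjusted p = 1.41e-06). NRROS fell with DOX to 0.448 ± 0.042 CPM, against 1.16 ± 0.20 CPM with DMSO (adjusted p = 0.00299), but another gene covers nearly all of its span on the same strand and it had no reads in the passage libraries.

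SMADs and their nuclear partners, 14 tested of 14, gave 10 rises and 2 falls at P33 relative to P3 (median log2 fold change 0.35), against 34.5% of all genes higher, and 2 rises and 3 falls with DOX relative to DMSO (median -0.01), where 37.3% were called. SMURF2, a ubiquitin ligase for SMADs and receptors, rose 1.77-fold at P33 (adjusted p = 4.71e-16) and 1.42-fold with DOX (adjusted p = 5.3e-10). The corepressor TGIF1 rose 1.75-fold at P33 (adjusted p = 7.56e-12) and fell 1.22-fold with DOX (adjusted p = 0.00151). SMAD7, the inhibitory SMAD, rose to 18.1 ± 1.8 CPM at P33, against 11.2 ± 0.41 CPM at P3 (SD, n = 3 each; adjusted p = 1.48e-08), and had 11.5 ± 1.3 CPM with DOX and 9.93 ± 0.57 CPM with DMSO (adjusted p = 0.0777).

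Of 12 BMP response genes, all tested, 9 rose and 1 fell at P30 relative to P24, with a median log2 fold change of 1.27, against 18% of all genes higher, 17.1% lower and a median of 0.00. At P33 relative to P30 1 rose and 10 fell, with a median of -1.497, against 23.6% of all genes higher, 24.8% lower and a median of 0.00. MSX2 was the one that fell at P30 (-1.24, adjusted p = 2.44e-07), and HEY1 the one that rose at P33 relative to P30 (1.09, adjusted p = 0.00386). The count of genes called lower at P33 relative to P30 stayed between 10 and 11 under all alternatives. ID1, an inhibitor of differentiation and a direct target of BMP SMADs, averaged 42.4 ± 2.8 CPM at P3, 39.5 ± 4.2 CPM at P11, 120 ± 35 CPM at P24, 232 ± 23 CPM at P30 and 79.7 ± 16 CPM at P33. ID3 averaged 8.65, 5.36, 9.83, 31.1 and 9.65 CPM at the same passages. P30 was the peak for both. It was also the passage with the lowest BMP2, on 7 to 20 reads per library. The more abundant BMP4 had means of 40.0 CPM at P30, 28.9 CPM at P24 and 40.6 CPM at P3. How these ligands relate to the response genes was not tested. At P33 relative to P3 the list gave 6 rises and 2 falls (median log2 fold change 0.30; 67.8% of all genes called): ID1 rose 1.88-fold (adjusted p = 3.07e-07), HEY1 rose 5.11-fold to 2.55 ± 0.38 CPM (adjusted p = 2.46e-07), MSX2 fell 2.64-fold (adjusted p = 4.56e-08), and ID3 did not pass (adjusted p = 0.269).

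With DOX relative to DMSO the BMP response list gave 6 rises and 2 falls, with a median log2 fold change of 0.42, where 16.7% of all genes were higher and 20.6% lower. ID1 had 29.7 ± 2.9 CPM with DOX and 8.09 ± 0.61 CPM with DMSO, 3.69-fold higher (adjusted p = 1.76e-10). ID3 had 7.21 ± 0.55 CPM with DOX and 2.72 ± 0.15 CPM with DMSO (adjusted p = 1.05e-08), and ID4 rose 2.27-fold (adjusted p = 7.68e-06). SMAD9, the BMP SMAD whose own gene responds to BMP, rose 1.28-fold (adjusted p = 0.00115), and MSX2 fell 1.81-fold (adjusted p = 3.89e-08).

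TGF-beta response genes, 24 tested of 24, did not move one way. They gave 15 rises and 4 falls at P24 relative to P11 (median log2 fold change 0.41), where 33.6% of all genes were called, and 9 rises and 8 falls at P30 relative to P24 (median 0.05), where 35.1% were. At P33 relative to P30 they gave 6 rises and 14 falls (median -0.27), where 48.4% of all genes were called, and at P33 relative to P3 12 rises and 10 falls (median 0.18), where 67.8% were. ITGA11, a collagen-binding integrin subunit, rose 4.66-fold at P33 relative to P3 (adjusted p = 1.91e-23), while ADAM12 fell 3.01-fold (adjusted p = 7.99e-18) and the contractile gene TAGLN fell 2.83-fold (adjusted p = 2.19e-21). TAGLN shares part of its span with another gene on the same strand.

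With DOX relative to DMSO 11 of the 24 rose and 5 fell, with a median log2 fold change of 0.18, where 16.7% of all genes were higher and 20.6% lower. CCN2 (connective tissue growth factor) had 363 ± 23 CPM with DOX and 118 ± 3.8 CPM with DMSO (adjusted p = 3.03e-21). ELN (elastin) had 237 ± 20 CPM with DOX and 95.6 ± 2.3 CPM with DMSO (adjusted p = 1.91e-13), and POSTN (periostin) had 209 ± 5.6 CPM with DOX and 84.1 ± 5.9 CPM with DMSO (adjusted p = 8.7e-16). ADAM12 fell 2.11-fold (adjusted p = 3.93e-14). POSTN thus rose with DOX, whereas at P33 it fell 2.38-fold relative to P3 (adjusted p = 7.44e-13).

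**Figure D4:**
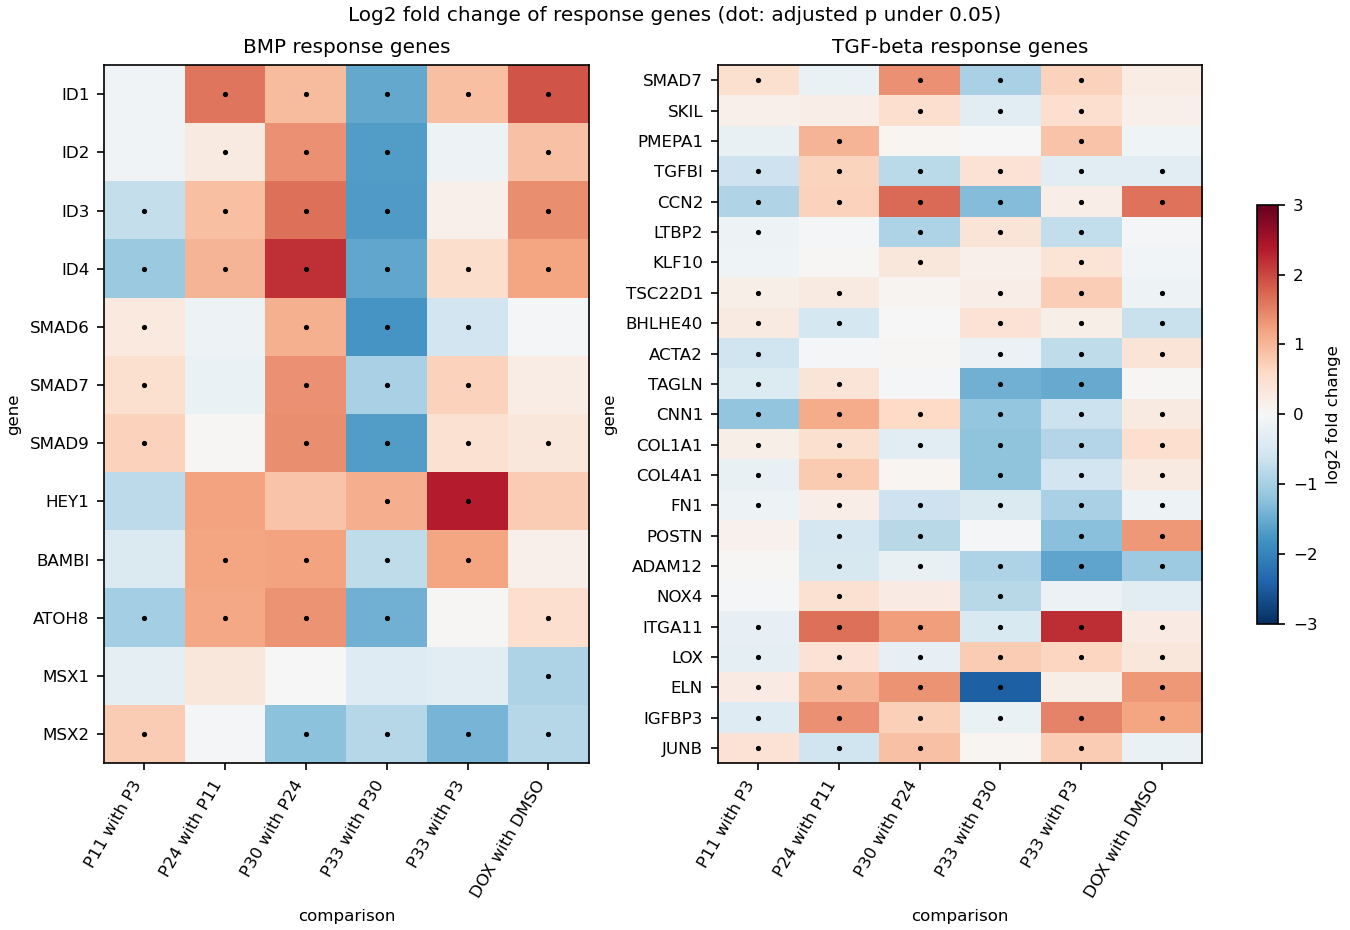
Log2 fold change (colour, from -3 to 3) of the BMP response genes (left) and TGF-beta response genes (right) drawn here, in 6 comparisons (columns), with a dot where the adjusted p was under 0.05. In the BMP panel the ID and SMAD genes are high at P30 relative to P24 and low at P33 relative to P30; the TGF-beta panel is mixed within every column.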

How the data were processed

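RNA of 21 libraries of BJ cells was sequenced after poly(A) selection and random priming, per the labels' protocols. Raw read counts for each gene, as deposited by the authors, were the starting point. Reads were processed with HISAT2 2.1.0, SAMtools 1.11, cutadapt 3.3, FastQC 0.11.9 and Subread's featureCounts 2.0.1, and DESeq2 1.34.0 is named too, with the builds hg38 and GRCh38.p13, per the submitters' processing notes. Their options, strand among them, were not given in the sources used here. Of 9427 genes wholly inside another gene of the same strand, none had reads in the 15 passage libraries and 3949 had them in the 6 DOX and DMSO libraries.

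Counts were fitted in R 4.3.3 with edgeR 4.0.16: genes were kept by filterByExpr (minimum count 10), which left 16821 and took out 44723, a single quasi-likelihood model of 7 group means took in every library after TMM scaling (factors 0.899 to 1.13, 14 residual degrees of freedom, biological coefficient of variation 5.48%). Tests were two-sided, with Benjamini-Hochberg adjustment over all genes tested in each of 10 comparisons, and "rose", "fell" and "called" mean an adjusted p under 0.05. Intervals are at 95%. Counts for all 21 libraries were also simulated around each gene's mean over all libraries, with 200 genes changed in 1 group. With the change at P33 the fit recovered 85.4% of 2-fold and 98.0% of 4-fold changes with 5.32% of calls false (15982 genes). With the change in DOX these values were 77.7%, 97.9% and 5.08% (15988 genes). Far more genes were called in the data, so these rates may not hold there. No pair of libraries of 1 group was identical or within sampling noise (chi-square per degree of freedom 2.69 to 11.1).

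Alternatives were DESeq2 1.42.0, DESeq2's size factors (RLE), no count filter, a filter of 1 CPM in 3 libraries, the passages and the DOX and DMSO libraries fitted apart, a replicate block, and each library left out. Recounts of response genes under them were added after the data were seen. The 9 genes, the pathway lists and the marker lists were chosen with earlier results of these data known. Besides the 9, the text names up to 3 genes per list with the largest change past the threshold and at least 1 CPM in the higher group, for P33 with P3 and for DOX with DMSO, plus FSTL3, SMAD7, ID1 and ID3, and up to 3 genes nearest in course; some genes that this rule names are not reported here. Promoters and motif shares come from RefSeq on GRCh38.p14, where 8 of the 9 genes matched; no protein sequence was used.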

Additional observations from a re-analysis of the deposited data

How the results depend on the processing

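Of 1017 values of the 9 genes under the alternatives, 988 kept their direction and their side of the threshold, 24 lost the call, 5 gained one and none reversed. The changed calls concern 11 of 81 pairs of gene and comparison, and the report gives each beside its result; 4 pairs concern BMP2, which rested on the fewest reads, and the cause was not tested. With each library left out in turn, the number of the 9 genes called stayed at 6 for P33 with P3 and ranged from 3 to 4 for DOX with DMSO, 5 to 7 for P33 with P30, 5 to 6 for P11 with P3, 6 to 7 for P24 with P11 and 5 to 7 for P24 with P3; it was 5 for the difference of the DOX and P33 effects and 9 for any difference among passages. No count of calls over all genes moved by more than 1.5 times. Replicate numbers are shared across groups, but same-numbered libraries did not deviate together, so the numbers were not taken to pair the samples; with a replicate block 11377 genes were called for P33 with P3, against 11408 without it, and 6221 for DOX with DMSO, against 6278, and no call of the 9 genes changed. Depth limits BMP2 and TGFB3 most, and 3 libraries a group limit every comparison. Levels were not compared between the passage libraries and the DOX and DMSO libraries.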
